A study of Mus musculus with 63 samples.

Results

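AG1478 and erlotinib are inhibitors of the tyrosine kinase of the epidermal growth factor receptor, EGFR. The arrays described here set one against the other in mouse keratinocytes that carry an oncogenic ras gene and have no functional *Egfr*. The 10 samples are the 6 arrays whose titles give knockout cells with ras and AG1478 and the 4 arrays whose titles give knockout cells with ras and erlotinib, out of 63 arrays in the series. Keratinocytes were grown from the skin of newborn CD-1 mice with a knockout of *Egfr*, transduced with the v-rasHa oncogene by a retrovirus and kept for 4 days. They then received 1 µM of AG1478 or of erlotinib for 2 h. Both groups therefore share the knockout, the oncogene, the dose and the time. Beside them stand 5 arrays of knockout ras cells with PD153035, another EGFR inhibitor at the same dose and time, 5 of wild-type (WT) ras cells with AG1478, 5 of WT ras cells with erlotinib and 5 of knockout ras cells without inhibitor. The labels do not say whether the cells of 1 sample came from 1 animal or from several.

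EGFR is a receptor tyrosine kinase that binds EGF, TGF-alpha, amphiregulin and related ligands, which keratinocytes make themselves, and passes the signal on through ras to the kinases MEK and ERK. Ras-transformed keratinocytes release more of these ligands and so drive their own receptor. AG1478, erlotinib and PD153035 are all anilinoquinazolines that compete with ATP in the kinase pocket. AG1478 carries a chloro group on the aniline ring and methoxy groups on the quinazoline, whereas erlotinib carries an ethynyl group on the aniline ring and methoxyethoxy groups on the quinazoline. Knockout cells lack the receptor these compounds are made to block, so the comparison asks where the compounds differ in cells without it.

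Each array gave, for 28049 probes, the log ratio of 1 sample's RNA over a commercial RNA pool made from several mouse cell lines, which is here called a level on the log2 scale relative to that pool. The base of 2 is assumed from the spread of the values. Arrays of the 2 groups held 24860 to 27985 values each. Their levels correlated at 0.695 to 0.827 within AG1478, 0.671 to 0.928 within erlotinib and 0.64 to 0.834 between the groups, so pairs from different groups were about as alike as pairs from 1 group. On each of the 10 arrays, basal keratinocyte genes exceeded genes typical of the pool by 3.299 to 5.766. *Egfr* itself checks the label poorly, because a probe outside the deleted part would still read the transcript. Its probe with most values had a lowest, median and highest level of 0.22, 1.45 and 1.77 with AG1478, against 2.61, 2.57, 2.47 and 1.97 with erlotinib.

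The arrays have 2 features that bear on every value below. First, the dye labels of AG1478 replicates 3 and 4 oppose their data. Replicate 3 is labelled as the usual dye order but its deposited ratios ran opposite to the forward arrays of its group (correlations of −0.818 to −0.702), while replicate 4 is labelled as reversed but its ratios ran the usual way. Each array was turned by its correlation with the forward arrays, so these 2 arrays were turned against their labels. As turned, basal keratinocyte genes exceeded genes typical of the pool by 4.741 in replicate 3 and 3.544 in replicate 4. With the labelled signs they would lie below them by as much, and why the labels differ is not known. Second, the groups share no run of experiment numbers. All 6 AG1478 arrays lie in the eighth run, with PD153035, erlotinib replicates 1 to 3 in the fifth and erlotinib replicate 4 in the sixth. Run and inhibitor therefore cannot be told apart between AG1478 and erlotinib.

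In knockout ras cells 67 of 27601 tested probes differed between AG1478 and erlotinib (limma with a term for dye order, Benjamini-Hochberg adjusted p under 0.05), which is 0.243% of those tested. Of these, 60 were lower with AG1478 (0.217%) and 7 were higher (0.0254%). The 67 probes stand for 50 named genes, 44 lower and 6 higher, and 15 probes without a gene symbol. Genes lower with AG1478 included the basal keratinocyte factor *Bnc1*, the chemokine *Ccl20*, the collagenase *Mmp13*, the NF-kappa B subunits *Nfkb2* and *Relb*, the cell cycle genes *E2f1* and *Kif11*, and the integrin *Itga3*. Below, fell and rose mean lower and higher with AG1478 than with erlotinib, not a change from cells without inhibitor. Mean levels with AG1478, without inhibitor and with erlotinib were 0.34, 0.36 and 2.50 for *E2f1*, and −1.79, −0.03 and −0.01 for *Erlin1*. Arrays without inhibitor lie in the third run and in the runs of erlotinib, and none lies in that of AG1478. Their means in the third run and in the runs of erlotinib were −0.08 and 1.02 for *E2f1*, and −0.13 and 0.13 for *Erlin1*. Samples of the 2 groups did not overlap for 41 of the 67, against 875 of all 27601 probes (3.17%). The 67 were chosen by a test on these same arrays, so this share describes them and adds no support. When p-values were adjusted over the 3 pairs of inhibitors in knockout ras cells together, 215 probes were called (0.779%), 52 higher and 163 lower, and all 67 were among them. At an unadjusted p under 0.05 there were 1837 lower probes (6.66%) and 1444 higher ones (5.23%).

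The size of this count rests on the treatment of the arrays. Without AG1478 replicates 3 and 4 it was 5 (0.0182%), all lower, and *Bnc1*, *Ahrr* and *Anxa5* were the named genes among them. With sign and dye order taken from the labels it was 3882 (14.1%), 1959 higher and 1923 lower. Those signs place basal keratinocyte genes below genes typical of the pool on AG1478 replicates 3 and 4. With run as a random block the count was 0, by the same limma fit, with 693 probes at an unadjusted p under 0.05. Leaving out single arrays gave 7 to 25 calls without 1 of AG1478 replicates 1 to 5, 65 without replicate 6, 15, 12 and 2 without erlotinib replicates 1, 2 and 3, and 192 without erlotinib replicate 4. All 67 kept their direction in the fits without those arrays and with run as a random block, and 66 of 67 did so with the labelled dye order. These probes were chosen for their difference on the same arrays, so a kept direction adds no support. No label ties a sample to a culture or an animal of its own, so the p-values rest on a spread between samples that may be partly technical.

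**Figure D1:**
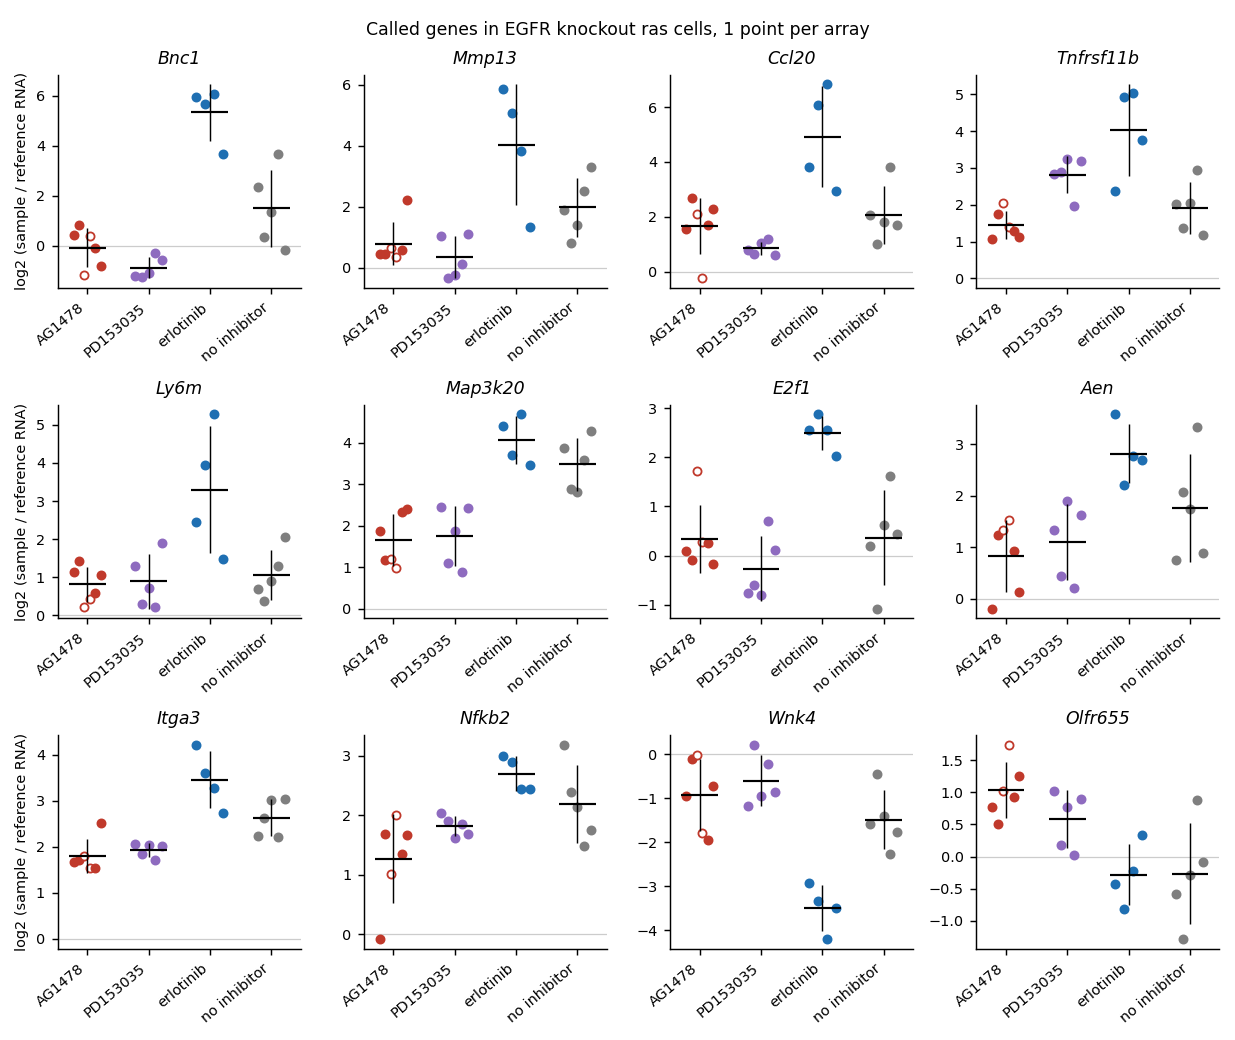
Levels (log2 of sample over reference RNA) of 12 called genes on each array of knockout ras cells with AG1478, PD153035, erlotinib or no inhibitor. Points are arrays, open points are AG1478 replicates 3 and 4, horizontal lines are group means and vertical lines are ± 1 SD (n = 6, 5, 4 and 5). For *Bnc1* the AG1478 arrays lie between −1.16 and 0.84, and the erlotinib arrays between 3.66 and 6.07.

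*Bnc1* encodes basonuclin 1, a zinc finger protein of proliferating basal keratinocytes, and it showed the largest difference among the called probes. Its lowest, median and highest levels were −1.16, 0.14 and 0.84 with AG1478, against 5.94, 5.66, 6.07 and 3.66 in erlotinib replicates 1 to 4. The groups did not overlap, and *Bnc1* was lower with AG1478 by 5.40 ± 0.93 (log2 difference −5.40 ± SE, 95% interval −7.25 to −3.54, adjusted p = 0.00911). The difference was −5.18 (adjusted p = 0.0362) without AG1478 replicates 3 and 4, −4.36 (adjusted p = 0.0403) with arrays scaled to equal spread, and −4.68 (adjusted p = 0.999) with run as a random block. Cells without inhibitor had levels of 2.33, 0.34, 1.34, 3.66 and −0.18 in replicates 1 to 5. Replicates 4 and 5 of those have experiment numbers of the sixth and the fifth run, as erlotinib does, and they lay at or below the erlotinib range.

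A second basal gene was called. *Itga3* encodes the alpha 3 chain of a laminin-binding integrin. Its lowest, median and highest levels were 1.53, 1.69 and 2.51 with AG1478, against 4.22, 3.6, 3.28 and 2.73 with erlotinib (−1.69 ± 0.34, adjusted p = 0.0262), again without overlap. Of the 18 basal keratinocyte genes tested these 2 fell and none rose. Of their differences 14 of 18 were below 0 (50.3% over all probes), and their median was −0.77, against a median of −0.005 over all 27601 probes. The list's median was 0.09 after scaling arrays to equal spread, so its direction changed with that choice. Suprabasal differentiation genes gave no call among 27 (3 lower and 1 higher at an unadjusted p under 0.05), with a median of −0.50 that became 0.50 after that scaling and 0.07 after quantile normalization.

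Among 26 cytokines and chemokines 1 fell, *Ccl20*, the attractant of cells that carry CCR6. Its levels with AG1478 were −0.24 at the lowest, 1.91 in the median and 2.67 at the highest, against 3.83, 6.08, 6.83 and 2.94 with erlotinib. The lowest erlotinib array lay just above the highest AG1478 array (−3.22 ± 0.76, adjusted p = 0.0433). Of the 26 differences 21 were below 0 (50.3% over all probes) and 5 above. At an unadjusted p under 0.05, 11 were lower (6.66% over all probes) and none was higher, and the median of the 26 was −0.96. It stayed below 0 in each of 6 other settings, from −1.18 without erlotinib replicate 4 to −0.48 with run as a random block. For the same list in knockout cells, AG1478 minus PD153035 had a median of 0.37 and PD153035 minus erlotinib one of −0.80. AG1478 minus erlotinib in WT cells had a median of 0.04. The decoy receptor *Tnfrsf11b*, osteoprotegerin, had levels of 1.07, 1.34 and 2.06 (lowest, median, highest) with AG1478, against 2.38, 4.93, 5.04 and 3.77 with erlotinib (−2.57 ± 0.56, adjusted p = 0.0354). The groups did not overlap for it.

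*Nfkb2* and *Relb*, the partners of the non-canonical NF-kappa B pathway, were both called. They and the other genes of the next 3 paragraphs that the rule for named genes did not choose were picked after their values were seen. *Nfkb2* lay between −0.08 and 2.00 with AG1478, with a median of 1.5, against 3.00, 2.90, 2.44 and 2.45 with erlotinib (−1.48 ± 0.35, adjusted p = 0.0433). *Relb* lay between −0.03 and 0.85, with a median of 0.60, against 2.29, 1.92, 1.69 and 1.46 with erlotinib (−1.39 ± 0.31, adjusted p = 0.0398). Neither gene overlapped between the groups, yet cells without inhibitor spanned 1.49 to 3.19 for *Nfkb2* and 0.77 to 2.62 for *Relb*, ranges that overlap those of both inhibitors. The interleukin 15 receptor chain *Il15ra* was called by 1 of its 5 probes (−3.91 ± 0.90, adjusted p = 0.0401). That probe had −0.54 to 0.37 on the 5 AG1478 arrays that held a value, against 1.34, 4.58, 4.92 and 4.77 with erlotinib. It had 4.76 and 4.18 without inhibitor in the sixth and the fifth run, against −1.56 to 0.72 in the third.

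*Mmp13*, the collagenase 3 gene, was the called member of 20 protease and matrix remodelling genes, and both of its probes were called. The probe with most values had levels of 0.35, 0.52 and 2.21 (lowest, median, highest) with AG1478, against 5.88, 5.09, 3.83 and 1.34 with erlotinib (−3.31 ± 0.69, adjusted p = 0.0351), and the groups overlapped because AG1478 replicate 6 lay above erlotinib replicate 4. The second probe had levels of 0.29, 0.59 and 1.10 with AG1478, against 1.31, 4.44, 4.19 and 2.70 with erlotinib (−2.54 ± 0.58, adjusted p = 0.0401), with no overlap. *Fscn1*, an actin-bundling protein, *Pdlim5*, a cytoskeletal adaptor, and *Anxa5*, a phospholipid-binding annexin, fell as well (−1.40 ± 0.30, −1.80 ± 0.33 and −1.32 ± 0.25). The called *Pdlim5* probe was not the one with most values for its gene. *Anxa5* lay between −1.2 and −0.30 with AG1478, with a median of −0.66, against 1.29, 0.38, 0.59 and 0.15 with erlotinib. It was called without AG1478 replicates 3 and 4 (−1.43, adjusted p = 0.0227) and with arrays scaled to equal spread (−1.26, adjusted p = 0.0457).

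Promoter windows are shown for 2 of the called genes, *Mmp13* because it is a textbook target of AP-1, the ERK-driven Fos and Jun dimer, and *Ahrr* because it is a textbook target of the aryl hydrocarbon receptor. They are the 250 bases before the RefSeq start of each gene on GRCm38.p6 (chr9:7272264-7272513, plus strand, and chr13:74292332-74292581, minus strand), in lower case with motif matches in capitals. Capitals mark TGANTCA in *Mmp13* and GCGTG or its complement in *Ahrr*, each searched on both strands.
Mmp13: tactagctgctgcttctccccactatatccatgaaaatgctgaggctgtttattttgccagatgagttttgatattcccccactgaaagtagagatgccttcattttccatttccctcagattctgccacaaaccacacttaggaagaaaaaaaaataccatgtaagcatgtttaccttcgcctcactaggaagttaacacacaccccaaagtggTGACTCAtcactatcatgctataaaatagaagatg
Ahrr: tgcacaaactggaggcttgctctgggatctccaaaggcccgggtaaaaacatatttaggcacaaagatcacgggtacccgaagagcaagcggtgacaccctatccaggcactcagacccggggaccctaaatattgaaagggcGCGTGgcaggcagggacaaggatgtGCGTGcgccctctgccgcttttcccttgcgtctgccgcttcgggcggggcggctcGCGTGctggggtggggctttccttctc
Of the 44 named genes lower with AG1478, 39 had a window. TGANTCA stood in 1 of these 39 (2.56%), the one of *Mmp13*, and in 6.87% of 27018 such windows of all genes. GCGTG stood in 18 of 39 (46.2%) and in 28.2% of all windows. These shares describe letters in a window, and their difference was not tested.

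*Ahrr*, the repressor of the aryl hydrocarbon receptor, was the 1 called gene of 11 targets of that receptor. Its levels were −0.44, 0.31 and 0.65 (lowest, median, highest) with AG1478, against 2.11, 3.02, 2.45 and 0.58 with erlotinib (−1.87 ± 0.35, adjusted p = 0.0131). The fourth erlotinib array, which carries the reversed dye order, lay within the AG1478 range. The difference was −2.06 (adjusted p = 0.0227) without AG1478 replicates 3 and 4. *Cyp1a1*, the detoxifying oxygenase that is the receptor's best known target, was not called (−1.45 ± 0.79, adjusted p = 0.474). Its levels spread widely in both groups, from −0.85 to 3.06 with AG1478 and at 1.39, 5.05, 4.40 and −0.91 with erlotinib. Of the 11 differences 10 were below 0 (50.3% over all probes), with a median of −0.34 in knockout cells and −0.30 in WT cells. The knockout median was −0.11 with arrays scaled to equal spread.

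Cell cycle and DNA damage genes gave 3 called members. *E2f1*, the G1/S transcription factor, was the called gene of 30 for DNA replication and G1/S. It had levels of −0.17, 0.17 and 1.71 with AG1478, against 2.55, 2.87, 2.55 and 2.03 with erlotinib (−2.08 ± 0.48, adjusted p = 0.0416), without overlap. *Kif11*, the kinesin that separates spindle poles, was the called gene of 27 for mitosis and lay between −0.78 and 1.39 with AG1478, with a median of 0.58, against 2.24, 2.60, 1.88 and 1.30 with erlotinib (−1.62 ± 0.36, adjusted p = 0.0363). The groups overlapped for it. *Aen*, a nuclease induced by p53, was the called gene of 21 p53 targets. It lay between −0.19 and 1.54 with AG1478, with a median of 1.08, against 3.58, 2.21, 2.78 and 2.70 with erlotinib (−1.97 ± 0.44, adjusted p = 0.0363), while its 2 other probes gave −0.71 and 0.12 and were not called. Of the p53 targets 20 of 21 differences were below 0, with a median of −0.65.

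Genes with roles in signalling were also among the calls, gathered here after their values were seen and not as a list. *Map3k20* encodes the stress-activated kinase ZAK, and its probe with most values gave levels of 0.99, 1.53 and 2.39 (lowest, median, highest) with AG1478, against 4.40, 3.71, 4.68 and 3.46 with erlotinib (−2.46 ± 0.54, adjusted p = 0.0362). The other 8 probes of *Map3k20* were not called and gave −2.20 to 0.10. *Rasgrp1*, an exchange factor that loads ras with GTP, and *Rin1*, a ras effector, also fell (−2.45 ± 0.55 and −1.67 ± 0.32). The called *Rasgrp1* probe was not the one with most values for its gene. *Rasgrp1* lay between −2.55 and −0.69 with AG1478, against 0.92, 1.2, 0.24 and 1.53 with erlotinib. The secreted factors *Artn*, a ligand of the RET receptor complex, *Kitl*, the ligand of KIT, and *Wnt3* fell by 1.83, 1.89 and 1.70 on the log2 scale. The groups overlapped for *Artn* and *Kitl* but not for *Wnt3*. *Wnt3* was the called gene among 24 of the Notch and Wnt pathways, with levels of −0.22, 0.47 and 1.44 with AG1478, against 3.12, 1.58, 2.68 and 1.46 with erlotinib.

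The rule for named genes also gave *Ly6m*, *Depdc7*, *Erlin1* and *Lrrc4*. *Ly6m*, a member of the Ly6 family of surface proteins, lay at 0.23, 0.83 and 1.43 (lowest, median, highest) with AG1478, against 2.46, 3.95, 5.27 and 1.49 with erlotinib (−2.52 ± 0.52, adjusted p = 0.0351), while its second probe gave −0.62 ± 0.48 (adjusted p = 0.641) with overlapping groups. *Depdc7* lay at −0.47, 0.16 and 1.56 with AG1478, against 2.62, 3.13, 3.00 and 2.25 with erlotinib (−2.25 ± 0.49, adjusted p = 0.0354). *Lrrc4*, a leucine-rich repeat membrane protein, lay at −0.48, −0.28 and 0.35 with AG1478, against 1.91, 1.12, 1.94 and 0.96 with erlotinib (−1.67 ± 0.36, adjusted p = 0.0354). *Slc7a11*, the cystine transporter subunit that NRF2 and ATF4 induce, fell on 1 probe (−2.05 ± 0.48, adjusted p = 0.0433), though no member passed the test among 25 NRF2 and glutathione genes (2 lower and 2 higher at an unadjusted p under 0.05) or 23 ATF4 and unfolded protein response genes (6 lower, none higher). Another probe stood for *Slc7a11* in those lists. The remaining named genes that fell, by 1.11 to 2.60 on the log2 scale, were *Olfr75-ps1* (with 3 erlotinib values), *Nyap2*, *Vrk1*, *Sh3bp4*, *Rell1*, *H2-K1*, *Nsun3*, *Olfr985*, *Klf12*, *Ccdc3*, *Slc38a4*, *Nedd1*, *Mnd1*, *Pskh1*, *Dcaf10*, *Klhdc4*, *Pes1* and *Lrrc8d*. As for *Rasgrp1* and *Pdlim5*, the called probes of *Olfr75-ps1*, *Vrk1*, *Sh3bp4*, *Rell1*, *H2-K1* and *Klhdc4* were not those with most values for their genes. Probes of olfactory receptor, Ly6 and H2 genes may also bind close relatives of these genes, which was not tested.

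The 6 named genes higher with AG1478 were *Wnk4*, *Xist*, *Chl1*, *Lrp1*, *Brd8dc* and *Olfr655*. *Wnk4*, a kinase that controls ion transporters, lay at −1.94, −0.84 and −0.01 (lowest, median, highest) with AG1478, against −2.93, −3.34, −4.19 and −3.48 with erlotinib (2.59 ± 0.57, adjusted p = 0.0354), while its second probe gave 0.10 ± 0.40. *Olfr655*, an olfactory receptor gene, lay at 0.50, 0.97 and 1.74 with AG1478, against −0.43, −0.81, −0.22 and 0.33 with erlotinib (1.36 ± 0.31, adjusted p = 0.0401). *Chl1*, a neural adhesion molecule, and *Lrp1*, an endocytic receptor, rose by 1.78 ± 0.41 and 1.67 ± 0.39, each on a probe that was not the one with most values for its gene. A further 6 genes, each on a probe that did not overlap between the groups, missed the threshold, *Cabp1* (1.74 ± 0.44, adjusted p = 0.0748), *Tmem174* (2.25 ± 0.59, adjusted p = 0.0819), *Cyp4v3* (1.61 ± 0.43, adjusted p = 0.0942), *Tex33* (3.67 ± 1.00, adjusted p = 0.102), *Rbm10* (1.24 ± 0.34, adjusted p = 0.102) and *Tdrd1* (1.83 ± 0.50, adjusted p = 0.104). A second probe of *Rbm10* lay the other way (−0.30 ± 0.30, adjusted p = 0.732), and one of *Tdrd1* gave 0.81 ± 0.57 (adjusted p = 0.599).

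*Xist*, the RNA that silences one X chromosome in female cells, was called on 2 probes (2.50 ± 0.53, adjusted p = 0.0351, and 2.12 ± 0.50, adjusted p = 0.0433). The first had 0.00 to 1.14 with AG1478, with a median of 0.61, against −2.85, −2.25, −2.83 and 0.53 with erlotinib. Erlotinib replicates 1 to 3 lay below every AG1478 array, and replicate 4 lay among them. The Y-linked gene *Eif2s3y*, a translation factor subunit, had −0.46 to 1.43 with AG1478, against 1.90, 1.86, 1.74 and −0.33 in erlotinib replicates 1 to 4 (−0.78 ± 0.45, adjusted p = 0.495). The Y-linked demethylase *Kdm5d* had −0.85 to 1.44 with AG1478, against 2.14, 1.75, 1.58 and 0.66 in erlotinib replicates 1 to 4 (−1.03 ± 0.58, adjusted p = 0.484). *Uty*, another Y-linked gene, did not share the low value of replicate 4, with −0.18 to 1.03 with AG1478, against 1.10, 1.15, 1.08 and 1.34 with erlotinib (−0.53 ± 0.44, adjusted p = 0.671), and its second probe gave 0.17 ± 0.47. These Y-linked genes were chosen after their values were seen. The sex of the animals was not analysed here, and its part in the other calls was not tested.

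**Figure D2:**
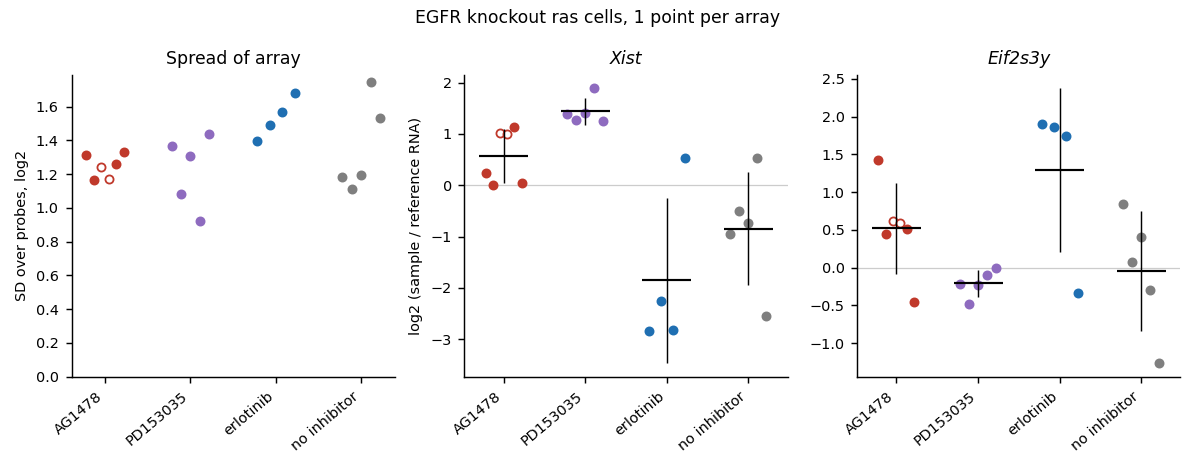
Left, SD over all probes of each array of knockout ras cells (log2 scale). Middle and right, levels of *Xist* and *Eif2s3y* on the same arrays. Points are arrays, open points are AG1478 replicates 3 and 4, and lines in the middle and right panels are means ± SD (n = 6, 5, 4 and 5). AG1478 arrays have SDs of 1.168 to 1.331, all below the erlotinib arrays at 1.396 to 1.678.

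The spread of the arrays differed between the groups. The SD over all probes of an array was 1.168 to 1.331 with AG1478, against 1.396 to 1.678 with erlotinib, and the ranges did not overlap. Knockout ras arrays without inhibitor had SDs of 1.534 in the fifth run and 1.749 in the sixth, the runs of erlotinib, and 1.112 to 1.194 in the third. In WT ras cells the SDs overlapped, at 0.979 to 1.591 with AG1478, against 0.977 to 1.565 with erlotinib. The WT erlotinib arrays of the fifth run had 0.977, 1.19 and 1.362, below every knockout erlotinib array. Knockout PD153035 arrays, in the eighth run like those of AG1478, had 0.921 to 1.436. Arrays of the same run thus differed in spread, and the parts of run and inhibitor in it cannot be told apart. Across 27601 probes the AG1478 mean was higher by 0.729 for each unit of the erlotinib mean, so levels far from the pool in either direction were nearer to it with AG1478. Of the 60 lower probes 57 had an erlotinib mean above 0, compared with 49.1% of all tested probes, and all 7 higher probes had one below 0. The erlotinib mean is part of the difference that chose these probes, so such a tilt follows in part from the choice. When arrays were scaled to equal spread 5 probes were called (0.0181%), 1 higher and 4 lower, and quantile normalization gave 3 calls (0.0109%). All 67 kept their direction under both, and the median over the 60 lower probes was −1.35 and −1.42, against −1.69 as deposited. Because the 67 were chosen on the same arrays, their kept direction adds no support.

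**Figure D3:**
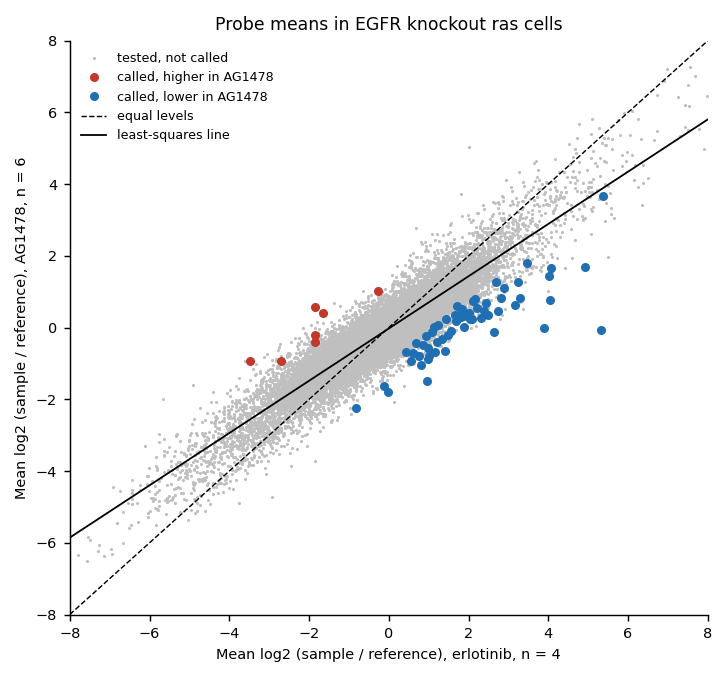
Mean level of each tested probe with AG1478 (vertical, n = 6) against its mean with erlotinib (horizontal, n = 4), log2 of sample over reference RNA. The solid least-squares line has a slope of 0.729, below the dashed line of equal levels, and called probes (60 lower, 7 higher) lie off the cloud, the lower ones mostly at erlotinib means above 0.

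The genes closest to the inhibitors' target showed no call. Of 12 EGF family ligands and receptors tested none passed, 5 were lower at an unadjusted p under 0.05 and none higher, and the median was −0.63. *Egfr* gave −1.14 ± 0.41 (adjusted p = 0.231) on the probe with most values and −0.51 ± 0.49 (adjusted p = 0.717) on its second probe. The related receptors *Erbb2* and *Erbb3* gave −0.36 (95% interval −1.09 to 0.38) and 0.16 (−0.63 to 0.95), intervals that both include 0. Of 30 target and feedback genes of the ERK pathway none passed, although 29 of the 30 differences were below 0, against 50.3% of all probes, and 8 of them were lower at an unadjusted p under 0.05. Their median was −0.57, and between −0.96 and −0.38 in the 6 other settings tried for lists. For the same list in knockout cells, AG1478 minus PD153035 had a median of 0.21 and PD153035 minus erlotinib one of −0.71. AG1478 minus erlotinib in WT cells had a median of 0.09. The part of the run in these values was not tested. The immediate early factor *Egr1* lay between −0.71 and 0.63 with AG1478, against 0.49, 1.48, 1.16 and −0.14 with erlotinib (−0.81 ± 0.30, adjusted p = 0.242).

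Across all 31 lists, 8 had called members and each of those members fell, as did 60 of all 67 called probes. Lists with a median above 0 included leukocyte and Langerhans cell markers at 0.52, stress and hyperproliferation keratins at 0.48 and lysosome and autophagy genes at 0.31, and none of their members was called. The 78 tested markers of 6 other cell types gave no call, with 1 lower and 5 higher at an unadjusted p under 0.05. Over all tested probes 0.243% were called, and 6.66% were lower and 5.23% higher at that unadjusted threshold. The arrays' mean level of the 18 leukocyte markers was −1.58 to −1.14 with AG1478, against −2.17 to −1.56 with erlotinib, far below the 2.03 to 3.03 and 2.51 to 3.88 of the basal keratinocyte genes. The 19 fibroblast markers averaged −1.61 to −0.99 with AG1478, against −1.75 to −1.10 with erlotinib. These levels are relative to a pool that holds leukocyte and fibroblast lines, and the part of such cells in the differences was not tested.

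**Figure D4:**
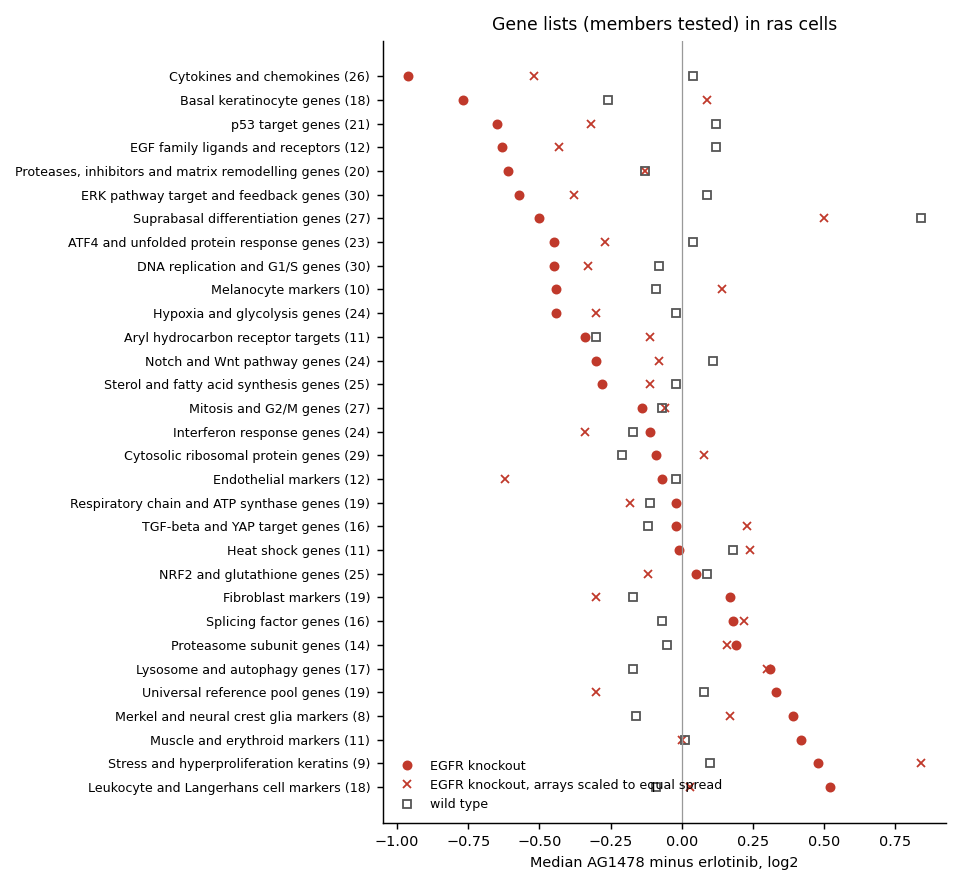
Median difference (AG1478 minus erlotinib, log2) of each gene list in ras cells, with the number of members tested. Filled circles are knockout cells, crosses are knockout cells after scaling arrays to equal spread and open squares are WT cells. Cytokines and chemokines lie at −0.96 in knockout cells, −0.52 after scaling and 0.04 in WT cells.

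In WT ras cells, where the receptor is present, the same pair of inhibitors differed at 249 of 27750 probes (0.897%), 73 higher and 176 lower with AG1478. Run as a random block left 1 of these. WT cells share no sample with the knockout comparison. Of the 67 probes called in knockout cells 42 had the same sign in WT cells, against 51.9% of all probes tested in both, and their differences correlated at 0.091 across 27465 probes, which are not independent replicates. The 60 lower probes had a median of −1.69 in knockout cells and −0.16 in WT cells. One probe was called in both, for *Erlin1*, an endoplasmic reticulum protein that takes part in sterol control. It lay at −2.39, −1.86 and −1.19 (lowest, median, highest) with AG1478 in knockout cells, against 0.39, −0.18, 0.03 and −0.30 with erlotinib (−1.80 ± 0.44, adjusted p = 0.049). In WT cells it had 0.76, 0.62, −1.60, −2.84 and 0.55 with AG1478, against 2.25, 0.91, 2.77, 0.74 and 1.00 with erlotinib (−2.04 ± 0.43, adjusted p = 0.0103).

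The WT arrays of AG1478 fall in 2 runs, and a difference between those runs was not tested. *Bnc1* had −1.26 and −2.09 in WT replicates 3 and 4 of the eighth run and 0.26, 1.01 and 4.85 in WT replicates 1, 2 and 5 of the seventh. The 6 knockout AG1478 arrays, also of the eighth run, lay between −1.16 and 0.84, and the 5 PD153035 arrays of that run between −1.25 and −0.31. The WT arrays of the 2 runs did not overlap for *Bnc1* or *Erlin1*. They overlapped for *Ccl20*, with −0.39 and 3.12 in the eighth run and 1.73, 5.48 and 4.87 in the seventh, and for *E2f1*, with −1.02 and 1.51 in the eighth and −0.64, 0.01 and 2.26 in the seventh.

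**Figure D5:**
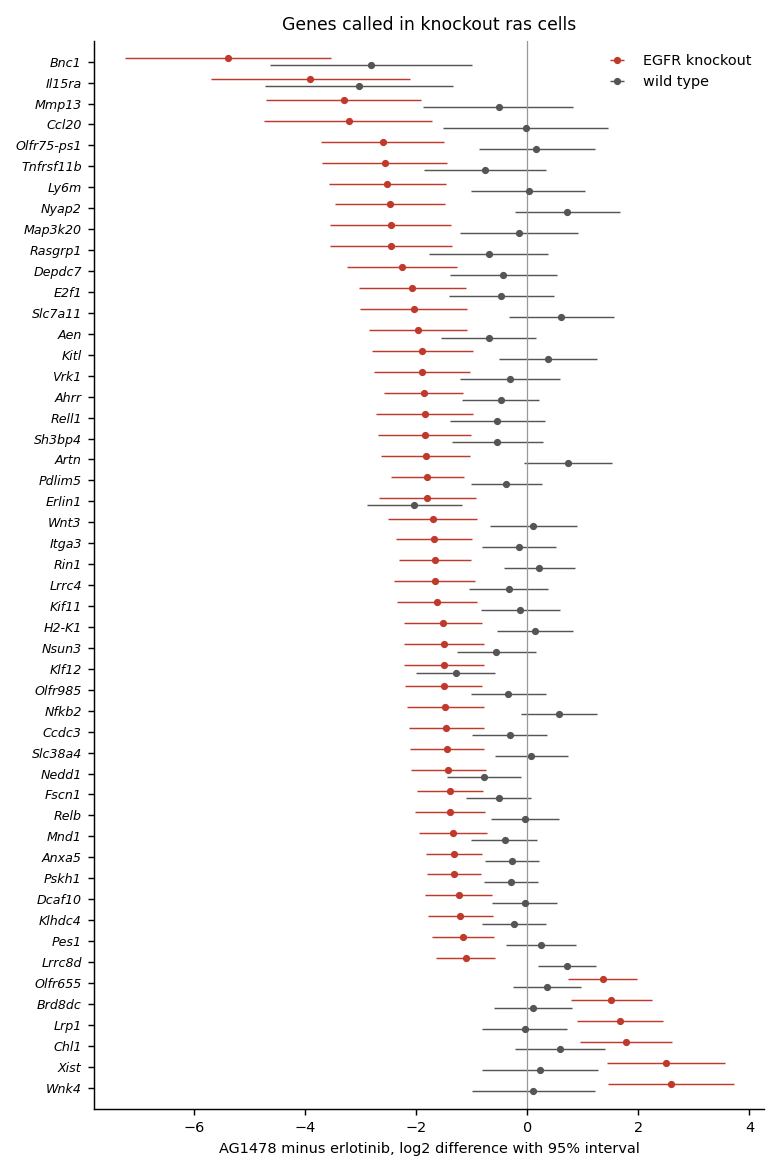
AG1478 minus erlotinib (log2 difference with its 95% interval from limma) for the 50 named genes called in knockout ras cells, 1 probe per gene. Red, knockout cells (n = 6 and 4), and grey, WT cells (n = 5 and 5). *Bnc1* lies at −5.40 and −2.82, and *Erlin1* at −1.80 and −2.04.

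Whether the difference between inhibitors itself depended on the receptor was tested as an interaction, knockout minus WT. No probe of 27465 was called (0%), with 3314 at an unadjusted p under 0.05 in the same limma fit. The 67 probes were chosen on the knockout difference, which is a part of the interaction, so their signs and unadjusted counts in it show nothing further. *Nfkb2* gave an interaction of −2.04 ± 0.49 (adjusted p = 0.1) and *Bnc1* one of −2.57 ± 1.30 (adjusted p = 0.420). Because both genotypes with erlotinib share the fifth and the sixth run and part of the AG1478 arrays share the eighth, run could be fitted as a fixed block here, which gave 31 calls (0.113%), 13 higher and 18 lower. None of the 31 was among the 67, and *Bnc1* then gave −0.42 (adjusted p = 0.962).

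PD153035 was compared as another inhibitor at the same dose and time. AG1478 and PD153035 lie in the same run, and they differed at 208 of 27921 probes (0.745%), 148 higher and 60 lower with AG1478. With run as a fixed block there were 464 calls. By the rule for named genes, *Tm4sf1*, *Fxyd3*, *Defb1*, *Cd24a* and *Dbi* were higher with AG1478, and *Atp8b4*, *Acot2*, *Lcat*, *Mtm1* and *Gadd45a* were lower. *Tm4sf1*, a tetraspan surface protein, lay between 0.49 and 1.38 with AG1478, with a median of 1.01, against −2.06 to −1.37 with PD153035 (2.71 ± 0.40, adjusted p = 4.92e-05). *Fxyd3*, a regulator of the sodium pump, lay between 3.47 and 4.36 with AG1478, against 1.44 to 1.90 with PD153035 (2.33 ± 0.33, adjusted p = 4.92e-05), and *Defb1*, an antimicrobial defensin, between 2.06 and 3.24, against 0.08 to 0.55 with PD153035 (2.33 ± 0.35, adjusted p = 7.15e-05). *Gadd45a*, a growth arrest gene induced by stress, lay between −0.63 and 0.42 with AG1478, against 1.18 to 2.48 with PD153035 (−1.73 ± 0.28, adjusted p = 0.00028). The groups did not overlap for any of these 4 genes.

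Against erlotinib these genes gave other values. With AG1478 minus erlotinib, *Tm4sf1* gave −0.76 ± 0.43 (adjusted p = 0.482), *Fxyd3* 0.13 ± 0.35 (adjusted p = 0.919), *Defb1* 1.12 ± 0.37 (adjusted p = 0.184) and *Gadd45a* −1.15 ± 0.30 (adjusted p = 0.0868). The 95% interval for *Fxyd3* was −0.57 to 0.83 in this fit, but its difference between AG1478 and erlotinib was 1.17 (adjusted p = 0.495) with arrays scaled to equal spread and −2.52 (adjusted p = 0.0428) with sign and dye order by the labels. PD153035 minus erlotinib, across runs, gave 1608 calls (5.82%), 649 higher and 959 lower, and 8 calls with run as a random block. Adjusted over the 3 pairs together, AG1478 minus PD153035 gave 321 calls (1.15%) and PD153035 minus erlotinib 954 (3.46%). These comparisons share their AG1478, PD153035 and erlotinib arrays with each other, so their values are set side by side only. For *Bnc1* AG1478 minus PD153035 was 0.82 and PD153035 minus erlotinib −6.22, for *Mmp13* 0.42 and −3.73, for *Relb* −0.01 and −1.38, and for *Wnk4* −0.31 and 2.90. Over the 60 lower probes the medians were −0.14 and −1.48, and 1 of the 67 probes, for the ribosome biogenesis factor *Pes1*, was called between AG1478 and PD153035.

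The precision of the comparison set what could be seen. The median SE of a difference was 0.38 and the median distance from an estimate to the bound of its 95% interval 0.76, and called differences ranged from 1.09 to 5.40 in size. In this fit the interval lay wholly within 1 of 0 on the log2 scale for 9923 probes, 36.0% of those tested. For the other probes at least 1 bound of the interval lay beyond that size.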

How the data were processed

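Per the labels' protocols, total RNA from each sample took 1 dye by indirect labelling and was hybridised with a universal mouse reference pool in the other dye. The deposited values are log ratios, taken as log2 from their spread, and the authors' background correction and normalization are not given in the sources used here. Array medians lay between −0.072 and 0.067. Of 28049 probes, 20925 carried 1 gene symbol in GEO's platform annotation, 159 several and 6965 none.

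Each array was turned by the sign of its correlation with the median profile over forward-labelled arrays. The fit used limma 3.58.1 (R 4.3.3, statmod 1.5.0) on 62 samples of 13 groups with a dye term. Variances were moderated by empirical Bayes. The p-values were adjusted by the Benjamini-Hochberg method within each comparison and, as an alternative, over the 3 inhibitor pairs. The procedure was also tried on simulated data with independent noise and no effect of run or dye. Such data cannot show how often probes are called falsely where run and inhibitor coincide. Figures and summaries used Python 3.11.15, pandas 2.3.3, scipy 1.17.1 and matplotlib 3.10.9. Differences include the dye term and so can differ slightly from those of plain means. Probes entered a test if 60 percent or more of each group's arrays had a value. The number of arrays limits the precision. The 2 arrays of WT mock replicate 1 were averaged. Runs are experiment numbers parted at gaps over 100, and their meaning is not given.

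The members and gene lists were chosen with earlier results of these data known. Genes were named by a rule: the probe with most values per symbol, the 12 largest called differences in each direction without overlap, up to 4 called members per list, *Egfr*, *Erbb2*, *Erbb3*, *Egr1* and *Cyp1a1*, up to 5 called genes in each direction for AG1478 minus PD153035 and the interaction, and uncalled genes up to 8 where fewer than 5 were called. Promoter sequences come from RefSeq. Same-numbered samples of the 2 groups did not deviate together (correlations of 0.067, 0.011, −0.244 and −0.167 for replicates 1 to 4). Alternatives are given in the closing section. Scaling to equal spread, the dye term by label, leaving out samples of the other comparisons, the adjustment over the pairs and a few joined settings were chosen after seeing the data.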

Additional observations from a re-analysis of the deposited data

Results flagged for a closer look

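In 134 groups of values, single arrays stood apart from the others of their group by more than Dixon's critical value 10 times. Chance flags about 1 in 20 such groups. AG1478 replicate 3, one of the arrays whose dye label opposes its data, stood apart for *E2f1* (1.71, the others −0.17 to 0.28), *Slc38a4* (0.67, the others −1.40 to −0.71) and *Tmem174* (1.16, the others −1.22 to −0.71). As turned, it is the only AG1478 array with the reversed dye order. AG1478 replicate 4 stood apart for *Pes1* (−1.27, the others −0.13 to 0.12). AG1478 replicate 6 stood apart for *Mmp13* (2.21, the others 0.35 to 0.65) and *Itga3* (2.51, the others 1.53 to 1.81). Erlotinib replicate 4, which alone of its group carries the reversed dye order and lies in the sixth run, stood apart for *Dbi* (−0.72, the others 0.72 to 1.00), *Ecm1* (−0.65, the others 0.89 to 0.90), *Eif2s3y* (−0.33, the others 1.74 to 1.90) and *Tm4sf1* (−0.47, the others 2.16 to 2.58).

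With run as a fixed block the interaction of inhibitor and genotype gave 31 called probes, against 0 without it, and 21 of the 31 were called without AG1478 replicates 3 and 4. *Ndfip2*, an adaptor of ubiquitin ligases, gave 3.92 ± 0.48 (adjusted p = 3.32e-06), against 0.85 ± 0.59 (adjusted p = 0.591) without the block. Its levels were 0.72 to 1.73 with AG1478 and 1.03 to 1.63 with erlotinib in knockout cells. In WT cells with AG1478 they were 1.48, 1.53, −2.64 and 1.33 in replicates 1, 2, 3 and 5, so that the value with the block rests on WT replicate 3. *Vegfa*, the vascular growth factor, gave −2.94 ± 0.58 (adjusted p = 0.0183) with the block and −2.27 ± 0.58 (adjusted p = 0.126) without it, and *Ecm1*, an extracellular matrix protein, 2.53 ± 0.44 (adjusted p = 0.00636) and 0.86 ± 0.56 (adjusted p = 0.566). These 3 genes were chosen after their values were seen.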

How the results depend on the processing

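The count of 67 probes between AG1478 and erlotinib in knockout ras cells stayed within 1.5 times of that value with forward arrays, median centring, no filter, only the groups compared (69 calls), the dye term by label or the replicate block (55 calls). It was 5 without AG1478 replicates 3 and 4, 5 with no dye term, 5 with arrays scaled to equal spread, 3 with quantile normalization, 37 for probes with a value on every array, 33 for probes averaged by symbol, 0 with run as a random block, 0 with that block and without replicates 3 and 4, 17 with the replicate block and without them, 3882 with sign and dye term by label, 2052 with array weights and 215 with p-values adjusted over the 3 inhibitor pairs together. Leaving out 1 replicate gave 2 to 192. Of the 38 called genes with 1 probe each, none reversed in any setting, 3 were called without AG1478 replicates 3 and 4, and 0 without erlotinib replicate 3. The 38 were chosen on these same arrays, so their kept direction adds no support. With only the groups compared the 69 calls were 25 higher and 44 lower, and 15 of those 38 genes were still called. *Fxyd3*, not called as reported, gave −2.52 and was called (adjusted p = 0.0428) with sign and dye term by label. List medians changed sign in 10 of 31 lists with equal spread, 7 with labelled signs, 6 with quantile normalization and 5 with run as a random block. In WT cells run as a random block gave 1 call, and leaving out 1 replicate gave 67 to 809. The interaction gave 31 with run as a fixed block, 25 with that and without AG1478 replicates 3 and 4, 1 with run as a random block, 1 without those replicates, 11 with the replicate block and 0 to 81 without 1 replicate. AG1478 minus PD153035 gave 464 with run as a fixed block, 374 with run as a random block, 321 with the adjustment over the 3 pairs and 76 to 338 without 1 replicate. PD153035 minus erlotinib gave 8 with run as a random block, 954 with that adjustment and 583 to 2029 without 1 replicate. The replicate numbers are shared only as numbers, and AG1478 replicate 3 correlated best with erlotinib replicate 4 (0.451), not its own number. As turned, these are the only arrays of the 2 groups with the reversed dye order. The cause of the changes between settings was not tested. Run and inhibitor cannot be told apart. Array quality and signal over background are not used here, and the dye labels of 2 of 6 AG1478 arrays oppose their data.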
